A study of Mus musculus with 68 samples.

Results

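The genes described here were the voltage-gated potassium channel genes of the Kv1 to Kv3, Kv5, Kv6, Kv8 to Kv12 and KCNQ (Kv7) families with their Kv beta partners. They were chosen by gene symbol alone, as every gene of the deposited table named Kcna, Kcnab, Kcnb, Kcnc, Kcnf, Kcng, Kcnh, Kcnq, Kcns or Kcnv with a number. This gave 40 of 36172 genes. They were read in 68 single neurons of the ventral tegmental area (VTA), 33 from 3xTg mice and 35 from wild-type (WT) mice, all 12 months old and of both sexes. 3xTg mice, a model of Alzheimer's disease with amyloid and tau pathology, were homozygous for human transgenes, among them APP Swe and Tau P301L. WT mice came from another line on the same C57BL/6;129 hybrid background that carried no transgene and was bred in parallel, so that genotype and line cannot be told apart.

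Each library held the contents of 1 neuron, taken up through the pipette after its current had been recorded (Patch-seq), with polyadenylated RNA captured. The study identified dopamine neurons by position and firing in general, but for Patch-seq it recorded no electrical measure beyond that current. Cells were then kept by their transcripts, so that the presence of dopamine neuron markers is a condition of entry. The same step removed cells judged positive for Pvalb, Tmem119, P2ry12 or Aldh1l1, markers of fast-spiking neurons, microglia and astrocytes, but its threshold is not given in the sources used here, and 5 cells of each genotype still had a count of at least 1 of these 4 genes. All 68 cells had a count of Th, Slc6a3 and Slc18a2, which encode the enzyme that makes L-DOPA, the dopamine transporter and the vesicular monoamine transporter. The labels name no mouse. Each genotype is therefore 1 sample, no test between genotypes is given, and an SD across cells describes cells and not animals. Totals ran from 492505 to 1678624 counts per cell, with medians of 1194457 in 3xTg and 982390 in WT, and the median number of genes with a count was 8511 in 3xTg and 7476 in WT. A share of cells with a count can move with that number and is to be read beside it. No 2 cells held identical counts. The deposited cells are only those kept as dopamine neurons, so that a background share of cells with a count cannot be given.

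Voltage-gated potassium channels open when the membrane depolarises and carry the outward current that ends the action potential and sets the pause before the next one. A channel is built of alpha subunits that form the pore together. Subunits mix within a family, and the electrically silent families form channels only with Kv2 subunits. Dopamine neurons fire slowly and regularly without input, with broad spikes. The families differ in role: Kv1 channels open near the firing threshold and often sit at the axon, Kv2 channels carry slow delayed rectifier current in the soma, Kv3 channels open at high voltages and repolarise fast spikes, the Kcnh families include the ether-a-go-go and erg channels, and KCNQ channels carry the M-current that muscarinic receptors suppress.

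Of the 40 genes, 36 had a count of at least 1 in some cell. Only 6 were counted in at least 34 of the 68 cells, among them Kcnc1, Kcna2, Kcna6, Kcnc2 and Kcns3. Another 13 were counted in 10 to 33 cells and 17 in 1 to 9 cells. Kcng4, Kcns2 and Kcnh7 were counted in 0 of 68 cells, which allows a share of up to 4.41% of cells. A cell showed a median of 10 of the 40 genes in 3xTg (range 5 to 17) and of 9 in WT (range 4 to 15). Drawing 700471 counts at random from each of the 31 3xTg and 30 WT cells that had that many gave medians of 9 and 8.5. The median number of genes with a count still differed after this thinning, at 8397 in 3xTg and 7036.5 in WT. The number of channel genes in a cell followed its number of genes with a count, with a Spearman rho of 0.80 over 68 cells that share the library's complexity. With the total count of the cell, rho was 0.098.

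**Figure D1:**
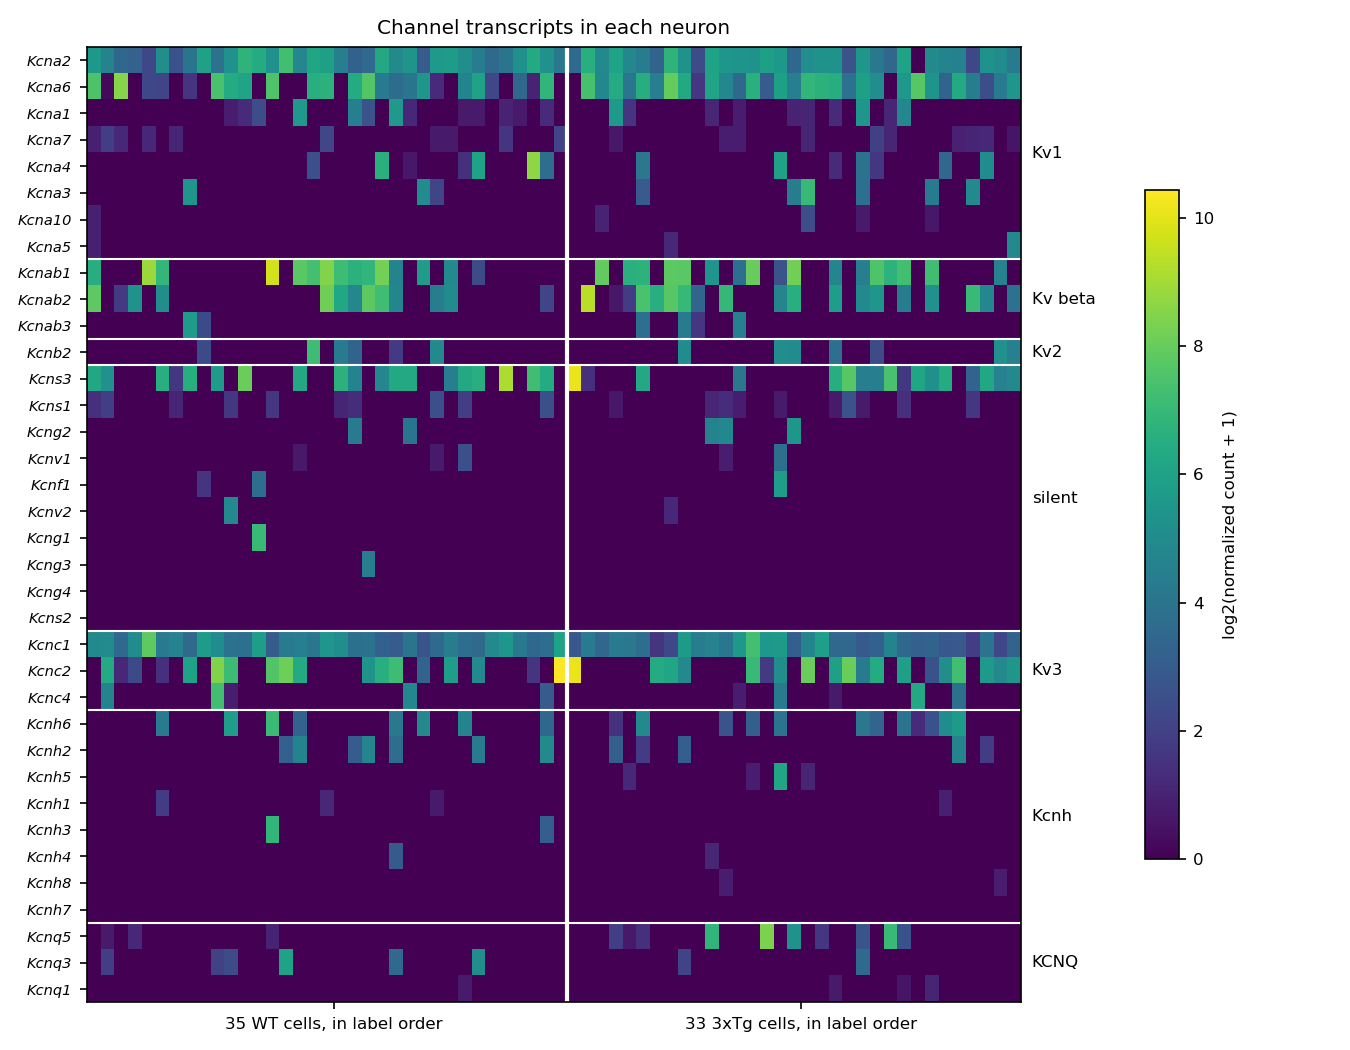
Each row is 1 of 36 of the 40 genes, grouped by family, and each column is 1 cell, with 35 WT cells on the left and 33 3xTg cells on the right in the order of their label numbers. Colour gives log2(normalized count + 1). Kcna2 and Kcnc1 form near-continuous bands at a middling level, while Kcnc2, Kcns3 and Kcnab1 alternate between 0 and high values and most genes of the silent and Kcnh families appear in a few cells.

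The 40 genes together held 34958 counts over all cells, or 494 CPM (counts per 1000000). Kv beta genes held 24.8% of these, Kv1 24.3%, Kv3 22.5%, the silent subunits 13.2% and Kcnh 3.06%. To compare genes, levels were divided by the length of the longest GENCODE transcript. On that scale Kcns3 stood highest, at 19.6 CPM per kb, followed by Kcnab1 at 18.1, Kcnc2 at 14.2, Kcnab2 at 10.6 and Kcna6 at 9.84. Kcna2 (3.39 CPM per kb) and Kcnc1 (3.32 CPM per kb), although counted in nearly every cell, lay well below them. For scale, Kcnd3, which encodes the Kv4.3 channel of the A-type current, stood at 17.9 CPM per kb and Kcnn3, the SK3 channel, at 6.64. With the union of all exons as the length, which was added after the data had been seen, Kcnab1 fell to 9.25 CPM per kb and Kcnab2 to 7.44, and Kcns3 (18.2) and Kcnc2 (10.1) alone stayed above 10. No sum over cells shows what 1 neuron held. Ranked within each cell by CPM per kb, Kcns3 was first in 16 of the 68 cells, Kcnab1 in 15, Kcnab2 in 9 and Kcnc2 in 8, and 13 other genes led in the remaining 20 cells.

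Kv1 alpha subunits set how readily a spike starts, and Kcna2 and Kcna6 were the members of that family counted most widely. Kcna2 (Kv1.2; chr3:107101567-107115005, plus strand, mm10) was counted in 32 of 33 3xTg cells and all 35 WT cells. Its level ran from 0 to 161 CPM in 3xTg with a median of 36.8, and from 2.63 to 115 CPM in WT with a median of 43.8. The ranges overlapped nearly throughout. Kcna6 (Kv1.6; chr6:126708329-126740674, minus strand) had more counts but was less even. It ran from 0 to 206 CPM in 3xTg (median 54.2) and from 0 to 369 CPM in WT (median 17.5), and it was counted in 31 3xTg cells and 24 WT cells.

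The other Kv1 genes were counted in fewer cells. Kcna1 (Kv1.1), which in axons often joins Kv1.2, was counted in 10 3xTg and 13 WT cells, but reached 10 counts in only 3 cells of each genotype. All 23 cells with Kcna1 also had Kcna2. Kcna4 (Kv1.4), the inactivating member of the family, was counted in 7 cells of each genotype at up to 322 CPM. Kcna3 was counted in 6 and 3 cells, Kcna7 in 10 cells of each genotype but never with more than 4 counts, Kcna10 in 4 and 1 cells and Kcna5 in 2 and 1.

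These genes lie in clusters, so that neighbours could be compared. Kcna3, Kcna2, Kcna10 and Kcnc4 lie between 107036162 and 107458898 on chromosome 3, and Kcna5, Kcna1 and Kcna6 between 126532551 and 126740674 on chromosome 6 (mm10). Within the first, Kcna2 was counted in 67 cells and Kcna10 in 5. Within the second, Kcna6 was counted in 55 cells and Kcna5 in 3. Bases before the start of each of these 4 genes are shown because they set the most and the least counted neighbours side by side (RefSeq, GRCm38.p6, 5′ to 3′ on the gene's strand, every CG in capitals). Exons of other transcripts of the same gene were left out, which shortened the first pair.
Kcna2, chr3:107101395-107101566, plus strand: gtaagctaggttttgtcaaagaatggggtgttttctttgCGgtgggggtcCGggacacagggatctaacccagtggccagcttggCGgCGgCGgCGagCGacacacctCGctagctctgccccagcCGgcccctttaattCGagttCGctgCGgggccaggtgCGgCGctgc
Kcna10, chr3:107182893-107183055, plus strand: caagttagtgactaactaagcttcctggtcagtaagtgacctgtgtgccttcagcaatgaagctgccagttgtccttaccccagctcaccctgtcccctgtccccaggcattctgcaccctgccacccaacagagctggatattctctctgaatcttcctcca
Kcna6, chr6:126740675-126740924, minus strand: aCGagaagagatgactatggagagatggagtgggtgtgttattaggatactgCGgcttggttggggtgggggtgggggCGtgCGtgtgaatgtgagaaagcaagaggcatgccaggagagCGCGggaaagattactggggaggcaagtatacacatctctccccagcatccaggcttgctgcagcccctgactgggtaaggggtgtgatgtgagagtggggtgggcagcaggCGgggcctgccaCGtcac
Kcna5, chr6:126535556-126535805, minus strand: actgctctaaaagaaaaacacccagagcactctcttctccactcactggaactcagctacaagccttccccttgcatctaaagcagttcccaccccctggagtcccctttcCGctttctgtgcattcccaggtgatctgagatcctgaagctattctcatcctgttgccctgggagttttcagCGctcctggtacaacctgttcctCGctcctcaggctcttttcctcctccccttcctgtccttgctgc

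Over the full 250 bases before the start, Kcna2 held 18 CG dinucleotides (a motif that reads the same on both strands) against 0 for Kcna10, and Kcna6 held 8 against 3 for Kcna5. At least 1 CG was present in 92.1% of the 32851 RefSeq windows of this length, with a median of 6. In both pairs the more widely counted neighbour had more, but this did not extend to the family. For 21 of the 40 genes a RefSeq window began at the start in the deposited table. The 11 of them counted in at least 10 cells had a median of 14, and the 10 counted in fewer cells a median of 16. Kcng3, counted in 1 cell, held 41, the most of the 21 genes. A GENCODE antisense gene, Gm26673, overlaps the start of Kcna6. Whether reads were counted by strand is not given in the sources used here, so that the partners' reads cannot be told apart.

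Kv beta subunits bind the inside of Kv1 channels, where they speed inactivation and aid their traffic, and by sum they were as abundant as all 8 Kv1 genes. Kcnab1 (Kv beta 1; chr3:65109643-65378219, plus strand) was counted in 17 3xTg and 15 WT cells. Its level ran from 0 to 358 CPM in 3xTg (median 9.59) and from 0 to 724 CPM in WT (median 0). In cells with a count the medians were 139 and 127 CPM, so that Kcnab1 was mostly either at 0 or high. Kcnab2 (chr4:152390740-152477549, minus strand) was counted in 19 and 13 cells, up to 413 CPM in 3xTg and 239 CPM in WT. Kcnab3 was counted in 4 and 2 cells. Both Kcnab1 and Kcnab2 were counted in 20 cells, 12 cells had Kcnab1 without Kcnab2 and 12 had Kcnab2 without Kcnab1. No Kv beta gene was counted in 8 3xTg cells and 14 WT cells. Kcnab1 overlaps the antisense gene A730090N16Rik, and 84.4% of its counts above 0 were not whole numbers, against 33.4% over the 40 genes and 55.3% over all genes (tolerance 0.001). The authors' counts are estimates that can share a read between genes or positions.

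Kv2 channels carry much of the delayed rectifier current of the soma. Among them, Kcnb2 (Kv2.2) was counted in 7 3xTg and 6 WT cells. Among the silent subunits, which do not form channels alone, Kcns3 (Kv9.3; chr12:11090202-11150842, minus strand) was the only one counted in at least 34 cells. Kcns3 was counted in 17 3xTg and 19 WT cells. It ran from 0 to 658 CPM in 3xTg (median 1.10) and from 0 to 518 CPM in WT (median 25.96). In cells with a count its medians were 42.7 and 117 CPM, and 4 3xTg and 11 WT cells reached 100 CPM.

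Kcns1 was counted in 10 cells of each genotype, never with more than 7 counts. Kcng2 was counted in 5 cells, Kcnv1 in 5, Kcnf1 in 3, Kcnv2 in 2, and Kcng1 and Kcng3 in 1 each. Kcng1 reached 148 counts in its 1 WT cell. Kcns3 overlaps the gene model LOC101055870.

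Kv3 channels open at high voltages and close quickly, as fast-spiking neurons need. Kcnc1 (Kv3.1; chr7:46396468-46438704, plus strand) was counted in all 68 cells, the only one of the 40 genes that was. It ran from 1.61 to 225 CPM in 3xTg (median 12.1) and from 6.26 to 159 CPM in WT (median 21.1). Kcnc2 (Kv3.2; chr10:112271123-112466304, plus strand) held more counts in fewer cells, with 19 3xTg and 18 WT cells. It ran from 0 to 656 CPM in 3xTg (median 19.1) and from 0 to 1739 CPM in WT (median 1.21). In cells with a count its medians were 62.3 and 102 CPM. Kcnc4 (Kv3.4) was counted in 5 cells of each genotype. The rho of Kcnc1 and Kcnc2 over 68 cells was -0.17.

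**Figure D2:**
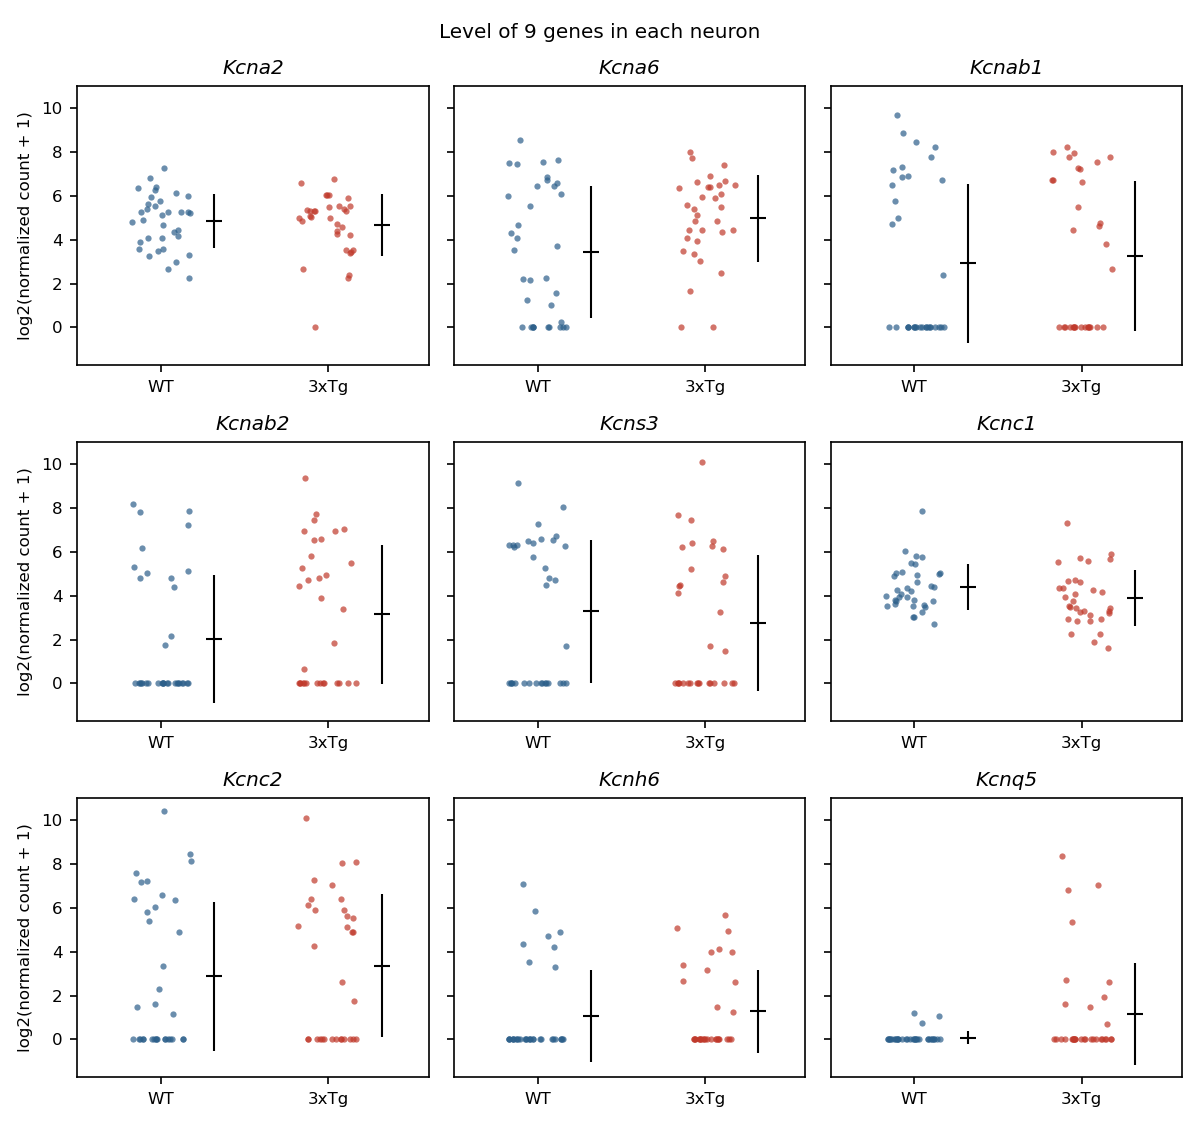
Each point is 1 cell and the vertical axis is log2(normalized count + 1), with the mean and SD across the 35 WT and 33 3xTg cells in black. Kcna2 and Kcnc1 lie in a single band in both genotypes, whereas Kcnab1, Kcnab2, Kcns3 and Kcnc2 split into cells at 0 and cells mostly above 4. Kcnq5 is at or near 0 in the WT cells and above 5 in 4 3xTg cells.

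Kcnc1 and Kcna2 differed from the other genes in how their level moved with depth. Across the 68 cells the CPM of Kcnc1 went down as the total count of the cell went up, with a rho of -0.73, and that of Kcna2 did so with a rho of -0.55. For Kcna6, Kcnc2 and Kcns3 rho was 0.08, 0.19 and 0.03. Of the 7304 genes counted in at least 34 cells, whose median rho was 0.07, 0.219% had a rho as low as that of Kcnc1 and 4.57% one as low as that of Kcna2. Counts above 0 that were not whole numbers made up 80.9% for Kcnc1, 76.1% for Kcna2 and 16.1% for Kcna6, beside a median of 62.7% over the 7304 genes. Low levels in nearly every cell were uncommon: 352 of 13867 genes below 50 CPM were counted in at least 66 cells, with a median rho of -0.50 and a median of 72.9% of counts not whole. Gad2, a marker of GABA neurons, was another of this kind, with a count in all 68 cells, a rho of -0.58 and 77.9% of counts not whole. The part of this pattern in the widespread counts of Kcnc1 and Kcna2 was not tested.

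**Figure D3:**
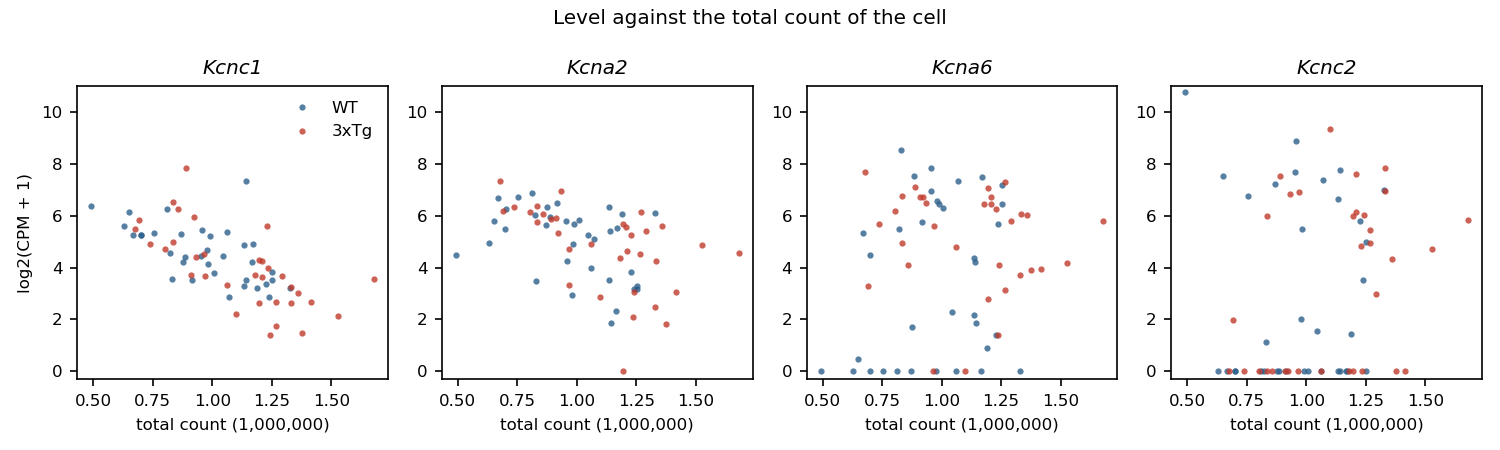
Each point is 1 cell, with its total count on the horizontal axis (in units of 1000000) and log2(CPM + 1) of the gene on the vertical axis. Kcnc1 and Kcna2 slope down from left to right in both genotypes (rho of -0.73 and -0.55 over 68 cells), while Kcna6 and Kcnc2 scatter with no slope and hold cells at 0.

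The Kcnh families were the least counted by sum. Kcnh6 (Kv11.2) and Kcnh2 (Kv11.1), both erg channels, were counted in 20 and 12 cells. Kcnh6 ran up to 39.4 CPM in its 12 3xTg cells and up to 119 CPM in its 8 WT cells, and Kcnh2 up to 19.5 and 49.7 CPM. Both were counted in 6 cells. The ether-a-go-go genes Kcnh1 and Kcnh5 were counted in 4 cells each, Kcnh3, Kcnh4 and Kcnh8 in 2 each, and Kcnh7 (Kv11.3), the remaining erg gene, in 0 of 68 cells. Kcnh5 had 107 counts in 3xTg, of which 96.3% came from 1 cell (label number 45), and no count in WT. Kcnh3 had 118 counts in WT, of which 90.7% came from 1 cell (label number 18), and no count in 3xTg. The 3xTg cell 45 also held the highest counts of Kcnf1 and Kcnv1 and showed 17 of the 40 genes, at 9309 genes with a count. It had no count of Gad1, Slc32a1, Slc17a6, Slc17a7 or Pvalb.

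KCNQ channels carry the M-current, which damps repetitive firing. Kcnq5 (Kv7.5) was counted in 10 3xTg and 3 WT cells, Kcnq3 (Kv7.3) in 2 and 6, and Kcnq1 (Kv7.1) in 2 and 1.

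Across all pairs of the 19 genes counted in at least 10 cells, levels moved little with each other. The 171 pairs had rho values of CPM from -0.23 to 0.43 with a median of 0.09, and 121 were above 0. The points of every pair share cells and their depth.

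For the comparison of genotypes, a gene was considered where it had a count in at least 10 of the 68 cells, as 19 of the 40 genes and 12393 genes in all did. Levels were compared in 2 ways: by averaging log2(normalized count + 1) over the cells of a genotype and subtracting WT from 3xTg, and by the log2 ratio of summed CPM. A gene was past the fold where both were at least 1 in size and of 1 sign. Only Kcnq5 was past the fold and higher in 3xTg, 1 of the 19 genes, where 5.00% of all genes considered were. None was past it and lower in 3xTg, where 0.702% of all genes were. The number called higher was near the share over all genes. Kcnq5 met the filter of 10 cells through its 3xTg cells, as its WT cells alone would not have met it. Its call was therefore not separate from the filter.

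The median difference of means was 0.02 over the 19 genes and 0.39 over all genes considered, and 10 of the 19 were above 0, against 72.1% of all genes. The median log2 ratio of sums was -0.29 over the 19 genes and -0.05 over all, and 5 of the 19 were above 0, against 47.5% of all. For 18 of the 19 genes the difference of means was smaller than the SD across cells in both genotypes. In 9 of the 19 it had 1 sign in both comparisons of runs of label numbers, which set the 21 3xTg cells numbered 24 to 55 against the 17 WT cells numbered 1 to 22, and the 12 3xTg cells numbered 76 to 92 against the 15 WT cells numbered 57 to 74.

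**Figure D4:**
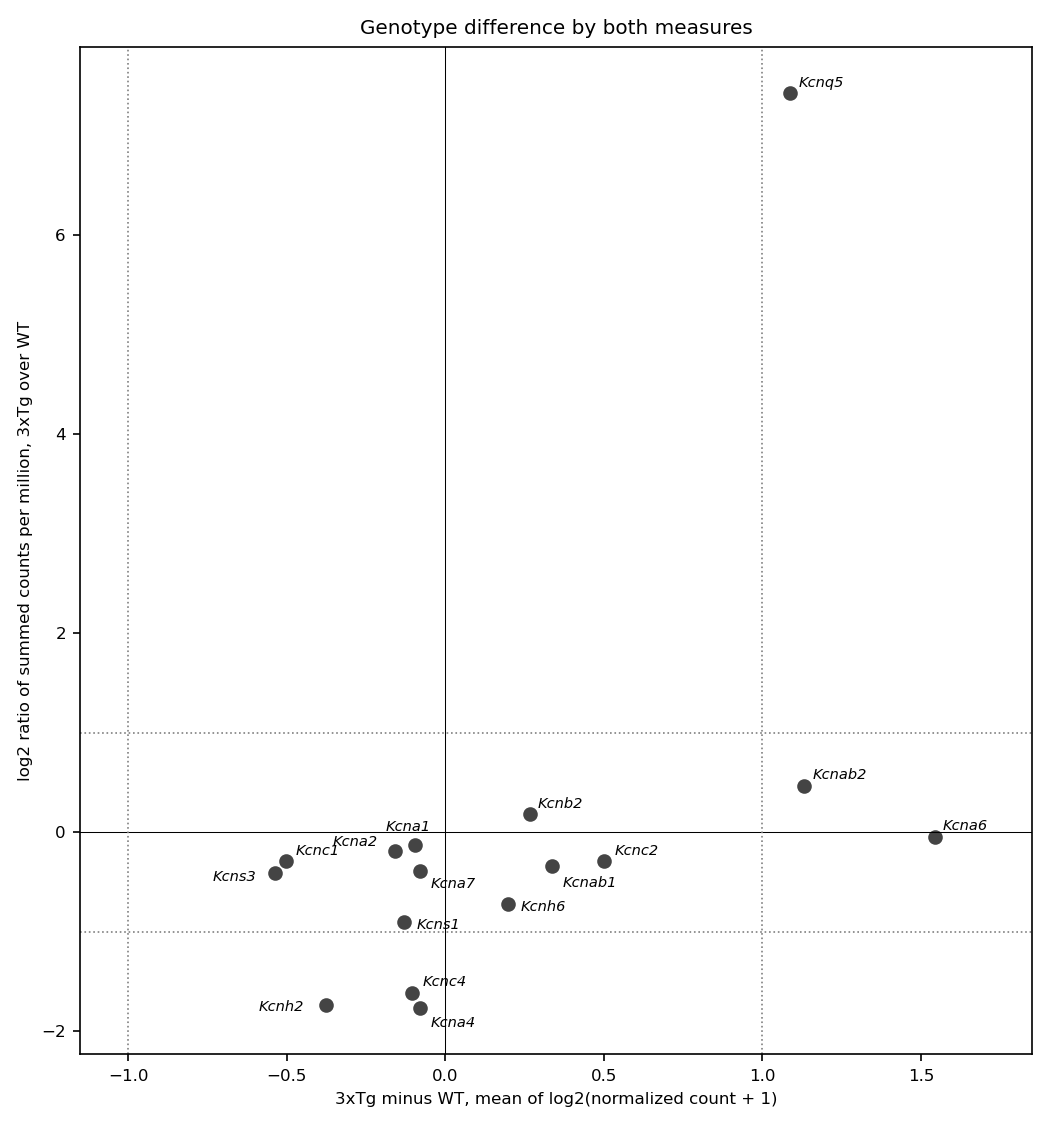
Each point is 1 of 16 of the 19 genes counted in at least 10 cells, with the difference of mean log2 levels on the horizontal axis and the log2 ratio of summed CPM on the vertical axis, both 3xTg against WT. Dotted lines mark 1 and -1. Kcnq5 alone lies beyond 1 on both, Kcna6 and Kcnab2 lie beyond 1 on the horizontal axis only, and Kcna4, Kcnh2 and Kcnc4 lie below -1 on the vertical axis only.

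Kcnq5 (chr1:21398403-21961942, minus strand) differed most by sums. In the 10 3xTg cells with a count, its level was 407 CPM in cell 43, 120 CPM in cell 39, 118 CPM in cell 78, 27.9 CPM in cell 48, and between 1.20 and 9.64 CPM in the other 6. The 3 WT cells with a count had 1 count each. The groups overlapped at 0, since 23 3xTg and 32 WT cells had no count, and above 0 every WT cell lay below 2 CPM. The sums were 558 counts in 3xTg (15.2 CPM, 95% interval 13.96 to 16.5) and 3 in WT (0.0882 CPM, 95% interval 0.0182 to 0.258). The log2 ratio was 7.43, with an exact interval of 5.87 to 9.71. The mean log2 level was 1.17 ± 2.33 in 3xTg (SD, n = 33 cells) and 0.0867 ± 0.293 in WT (SD, n = 35 cells), a difference of 1.09. Intervals of sums cover the counting of reads and those of shares the counting of cells. Neither covers differences between mice, nor do those of sums cover differences between cells.

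The call of Kcnq5 rested on few cells. Cell 43 held 50.4% of its 3xTg counts, and without that cell the log2 ratio was 6.45. Leaving out any 1 of cells 39, 43, 48 and 78 took the difference of means below 1. So did thinning (0.70), a pseudocount of 10 (0.50) and the cells with no count of Pvalb, Tmem119, P2ry12 or Aldh1l1 (0.74). Thinning left out 3xTg cells 30 and 43 for their low totals, so that it was not separate from leaving out cell 43. Of the 10 3xTg cells with a count of Kcnq5, 43 and 48 had a count of the microglial gene P2ry12 and 32 one of Pvalb. Cell 43 also held 73.2% of the 3xTg counts of C1qb, another microglial gene, at 2964 CPM. The part of these cells' other RNA in the result was not tested. Comparing the cells of lower label numbers (3xTg 24 to 55 against WT 1 to 22) gave a difference of means of 1.08, and comparing those of higher numbers (3xTg 76 to 92 against WT 57 to 74) gave 1.03. Among the higher numbers, 3xTg cells 76, 78 and 79 had a count, at 5.89, 118 and 9.64 CPM, and no WT cell did. Kcnq5 overlaps the gene model Gm7658 on its own strand.

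By the mean alone, 3 of the 19 genes were at least 1 higher in 3xTg, where 22.6% of all genes were. They were Kcna6 (1.54), Kcnab2 (1.13) and Kcnq5. None was at least 1 lower, where 0.734% of all genes were. Kcna6 was counted in 93.9% of 3xTg cells (95% Clopper-Pearson interval 79.8 to 99.3) and in 68.6% of WT cells (50.7 to 83.1). Its sums were equal within counting error, with 56.6 CPM in 3xTg and 58.3 CPM in WT and a log2 ratio of -0.04 (interval -0.13 to 0.05). Among cells with a count the difference was 0.30. The 11 WT cells without Kcna6 had a median of 4870 genes with a count and the 24 with it 7930.5. After thinning the shares were 93.5% and 76.7%. Thinning left out 5 WT cells, and cells 2, 11, 58 and 96 among them were without Kcna6. The WT share thus also changed through the cells left out. It was 1.83 higher in the 3xTg cells of the first runs and 0.95 higher in those of the second. When the cell's number of genes was entered in a linear fit, the difference was 1.29 for Kcna6. After thinning, over the cells kept, it was 0.90, below 1.

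The comparison did not keep its direction between the runs of label numbers in several genes. For Kcnab2 the difference was 2.06 in the first runs and -0.24 in the second. For Kcns3 the signs were the other way round, at -1.01 and 0.89, and for Kcnc2 they were -0.22 and 1.76.

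**Figure D5:**
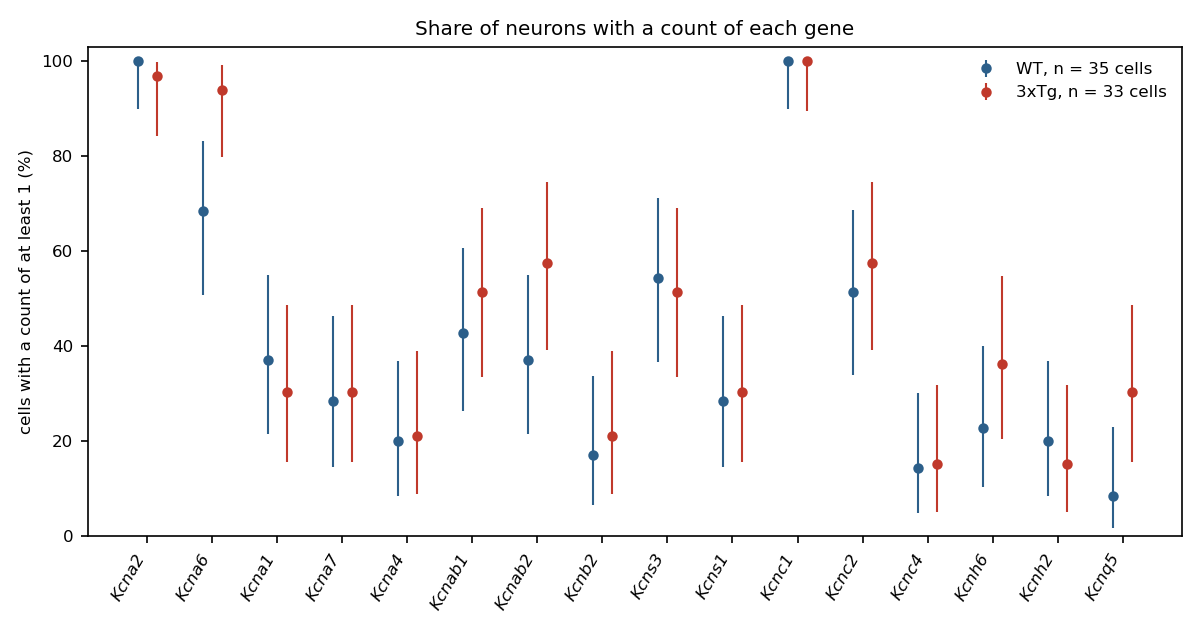
Points give the percentage of cells with a count of at least 1 of each of 16 of the 19 genes in WT (n = 35 cells) and 3xTg (n = 33 cells), and bars are 95% Clopper-Pearson intervals that cover the counting of cells only, from 1 sample per genotype, and make no test. The widest gaps are those of Kcna6 (93.9% in 3xTg, 68.6% in WT) and Kcnq5 (30.3% and 8.57%).

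By sums alone, 1 gene was at least 1 higher in 3xTg, where 10.1% of all genes were, and 3 were at least 1 lower, where 12% of all genes were. The lower ones were Kcna4 (log2 ratio -1.77), Kcnh2 (-1.74) and Kcnc4 (-1.61). Single cells weighed on each. WT cell 94 held 61.8% of the WT counts of Kcna4, and without it the ratio was -0.43. WT cell 14 held 67.8% of those of Kcnc4, and without it the ratio was -0.02. Kcnh2, with 7 WT and 5 3xTg cells, kept a ratio of -1.34 without its highest WT cell, on 55 counts in 3xTg and 170 in WT. The differences of means of these genes were -0.08, -0.38 and -0.10.

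The genes counted in nearly all cells were lower in 3xTg by less than their spread across cells. Kcna2 stood at a mean log2 level of 4.68 ± 1.41 (SD, n = 33) in 3xTg and 4.84 ± 1.23 (SD, n = 35) in WT, a difference of -0.16, with a log2 ratio of -0.18. Kcnc1 stood at 3.89 ± 1.27 and 4.39 ± 1.04, a difference of -0.50, with a log2 ratio of -0.29. Both were lower in 3xTg, whose cells had the higher median total. For Kcna2 this direction did not hold in the first runs of label numbers, where the difference was 0.08, against -0.51 in the second. Kcns3 was lower in 3xTg by both measures, with a difference of means of -0.54 and a log2 ratio of -0.41. Kcnc2 went opposite ways, with a difference of means of 0.50 and a log2 ratio of -0.29. WT cell 96 held 31.7% of the WT counts of Kcnc2 and 3xTg cell 24 held 30.2% of those in 3xTg. Without the highest WT cell the ratio of Kcnc2 was 0.24. 3xTg cell 24 also held 39.6% of the 3xTg counts of Kcns3, and the ratio was -1.09 without it. Kcnab1 stood at 70.5 and 89.2 CPM, with a log2 ratio of -0.34 and a difference of means of 0.34, also of opposite signs. WT cell 18 held 25.5% of the WT counts of Kcnab1, and without it the ratio was 0.04.

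The partners of these channels were read from a list of 23 genes that held, among others, the KCNE subunits, the Kv2 anchors Amigo1, Vapa and Vapb, the Kv1 complex of axons (Lgi1, Adam22, Cntnap2, Cntn2 and the Dlg scaffolds), the KCNQ binders Ank3, Akap5, Calm2, Calm3 and Stx1a, and the enzymes Nedd4l and Cdk5. Of the 23, 18 were counted in at least 10 cells, and their median difference of means was 0.67 and their median log2 ratio -0.01. Over all genes considered these medians were 0.39 and -0.05. None was past the fold in either direction. By the mean, 4 of the 18 were at least 1 higher in 3xTg, beside the 22.6% of all genes. Lgi1, which is secreted and binds Adam22, stood at 1.68, Cntnap2 at 1.59, Calm3 at 1.13 and Adam22 at 1.06, with log2 ratios of sums of 0.08, 0.56, 0.20 and 0.62. Without its highest WT cell the ratio of Cntnap2 was 1.27. Dlg4 (PSD-95) had a log2 ratio of 3.54, at 4.79 CPM in 12 3xTg cells and 0.411 CPM in 4 WT cells, with a difference of means of 0.93. Cntn2, counted in 33 and 32 cells, had a log2 ratio of -1.24 and a difference of means of -0.13. WT cell 5 held 35.4% of its WT counts, and without that cell the ratio was -0.65. The 5 KCNE genes (Kcne5 is listed as Kcne1l) were counted in 0 to 5 cells of either genotype, with Kcne2, the partner of erg and KCNQ channels, in 5 3xTg cells and no WT cell. Cell 78 held 62.8% of the 183 counts of Kcne2, and 4 of its 5 cells were numbered 76 to 92. Kcne2 was below the filter of 10 cells.

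Markers of other cells were counted in cells of both genotypes. Summed over the list, microglial markers (Tmem119, P2ry12, Cx3cr1, C1qb) ran from 0 to 3294 CPM in 3xTg and from 0 to 2329 CPM in WT, with a median of 24.1 in each. Of these, Cx3cr1 was counted in 59 cells, C1qb in 23, P2ry12 in 7 and Tmem119 in 1. The CPM of Cx3cr1 went down as the total count went up, with a rho of -0.48. Mbp and Mobp, of oligodendrocytes, were counted in 67 and 66 cells, with rho values of -0.34 and -0.21. The microglial gene C1qb was itself past the fold and lower in 3xTg, at 76.2 CPM against 321 CPM in WT, with a difference of means of -1.14 and a log2 ratio of -2.08 (-3.95 without 3xTg cell 43), and 2 3xTg and 9 WT cells reached 100 CPM of it. Oligodendrocyte markers ran from 5.66 to 583 and from 7.94 to 2540 CPM, with a log2 ratio of -1.75 and a difference of means of -0.79 for Mbp, and those of GABA neurons (Pvalb, Gad1, Gad2, Slc32a1) from 1.10 to 168 and from 3.14 to 267 CPM. Those of glutamate neurons were counted in 8 cells of each genotype and those of astrocytes in 5 3xTg and 8 WT cells. Aldh1l1, Cldn5 and Pecam1 were at 0 in every cell. The part of RNA from other cells in the counts of the channel genes was not tested.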

How the data were processed

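Per the study's methods, the authors clipped 5 bases from each read end and low-quality 3′ ends, mapped reads with Strand NGS 4.0 onto RefSeq transcripts of mm10 (identity of 90% or more), discarded duplicates and counted reads, and the deposited table gives these as estimated counts per gene. A log2 value per gene and cell, which the authors normalized by the method of DESeq2, is also deposited. Its offset differs between genes and is not given in the sources used here, so it served as an alternative only.

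Size factors were calculated from the counts as in DESeq2 (median of ratios, 787 genes). Sums, thinning and the TMM factors of edgeR 4.0.16 used rounded counts. Levels were log2(normalized count + 1). Sums carry exact Poisson intervals and shares Clopper-Pearson intervals at 95%, ratios of sums the exact binomial interval. A ratio against a sum of 0 used 3 counts and is a bound, as for Kcnq5 between the second runs of label numbers. Transcript lengths came from GENCODE M21. Counting precision follows from totals of 492505 to 1678624 per cell. The calculations were tested on simulated data, and doublets were not called. The channel genes and the partner and marker lists were chosen with earlier results of these data known, and channel genes in at least 34 cells or past the fold are given in full. Counts and medians cover all genes of a list, but some of these genes and 1 transgene are not reported individually here. Python 3.11.15, numpy 2.4.6, scipy 1.17.1, pandas 2.3.3, matplotlib 3.10.9 and R 4.3.3 were used.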

Additional observations from a re-analysis of the deposited data

How the results depend on the processing

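Kcnq5 alone was past the fold and higher in 3xTg with CPM, with edgeR's TMM factors, with a pseudocount of 0.1, in a linear fit with the cell's gene number, without a filter and between the second runs of label numbers. In that order, 4.94%, 6.01%, 7.30%, 3.40%, 3.52% and 8.38% of all genes were. The count of channel genes was 0 after thinning, with a pseudocount of 10, in cells with no count of Pvalb, Tmem119, P2ry12 or Aldh1l1, relative to the median gene, without the highest cell of each genotype (added after the data had been seen), and with a normalized count of at least 1 in 80% of the cells of a genotype, a filter that Kcnq5 did not pass and that left 3 of the 40 genes. In that order, 4.41%, 1.33%, 5.62%, 3.35%, 6.71% and 2.13% of all genes were past the fold and higher. The count was 3 between the first runs (Kcnq5 and Kcnab2 among them), where 11.7% of all genes were, and leaving out each cell gave 0 to 2. The count lower in 3xTg was 0 under every alternative run, with a range of 0 to 0 when each cell was left out. The share of all genes lower in 3xTg ran from 0.161% with a pseudocount of 10 to 3.99% between the second runs. The cause of these changes was not tested. Thinning left out 3xTg cells 30 and 43, so that for Kcnq5 it was not separate from leaving out cell 43. The median difference of means, 0.02, ran from -0.07 to 0.17 when each cell was left out, was -0.14 in that linear fit, where the median of all genes went from 0.39 to 0.09, and was -0.16 under the stricter filter. The median log2 ratio, -0.29, ran from -0.35 to -0.17 when each cell was left out, and was -0.17 in cells without the other markers, -0.083 in the first runs and -0.38 in the second. Pseudocounts and the straight-line fit could give no ratio of sums. The median number of the 40 genes counted per cell was 10 to 10 in 3xTg and 8.5 to 9 in WT when each cell was left out, and 9 to 9 over all, and with at least 10 counts it was 6 in 3xTg. Of 247 recalculated differences of the 19 genes, 242 moved by less than the SD across cells, and 6 of the 19 genes kept their sign under every alternative. The 5 that moved more were those of Kcnq5, which ran from 0.50 to 2.86. With the union of exons as length, 2 genes and not 4 lay above 10 CPM per kb. No paired analysis was possible because the genotypes share no label number. Depth limits the shares: a gene at a few counts per cell can be missed, and 1 sample per genotype leaves the difference between mice unmeasured.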
